A study of Homo sapiens with 6 samples.

Results

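The lipid droplet genes examined here encode 10 proteins that coat droplets, join them, make their triglyceride or break it down, and they were taken by gene name from a table of 62709 genes. They are the perilipins PLIN2, PLIN3, PLIN4 and PLIN5, the droplet fusion proteins CIDEB and CIDEC, the acyltransferases DGAT1 and DGAT2, the lipase PNPLA2 and its inhibitor G0S2. All 10 names matched 1 gene each. The cells were HepG2.2.15, human hepatoma cells that descend from HepG2, carry integrated hepatitis B virus DNA and were grown with G418. The labels give the genotype as WT in both groups. In the YQSHJD group the cells were kept for 3 days in medium of which 10% was diluted YQSHJD powder, a freeze-dried preparation of a traditional Chinese medicine, the Yinqi Sanhuang Jiedu Decoction. In the control group they were kept for 3 days with physiological saline according to the sample labels, or with PBS according to the treatment protocol of the same labels. Polyadenylated RNA was sequenced in 3 libraries per group, called YQSHJD 1 to 3 and saline 1 to 3. The labels do not say whether these were separate cultures, so the p-values speak only of the spread among these 6 libraries, and that spread may be technical. The question of the series is the effect of YQSHJD on gene expression in these cells.

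A lipid droplet is a core of triglyceride and sterol ester under a single layer of phospholipid, and perilipins and CIDE proteins sit on that layer. Triglyceride is finished at the endoplasmic reticulum by DGAT1 or DGAT2, which add the last fatty acid to diacylglycerol, and it is opened again by PNPLA2, also called adipose triglyceride lipase, which ABHD5 activates and G0S2 inhibits. Hepatocytes use droplets to hold fatty acids in a harmless form, to feed mitochondria and to supply triglyceride for very low density lipoprotein. PLIN2 is the perilipin that is typical of hepatocyte droplets, and its gene and that of CIDEC are known targets of peroxisome proliferator-activated receptors (PPARs).

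The sequences before the start sites of 3 genes are shown because PLIN2 and CIDEC were the members that rose, while PNPLA2, the lipase that acts against storage, was not called. Each is the 250 bases before a RefSeq start on GRCh38.p14, 5′ to 3′ on the gene's own strand, and capitals mark matches to 8 short motifs searched on both strands. PLIN2 is at chr9:19127493-19127742 on the minus strand. The deposited values list this gene up to position 19149290, so its window lies inside the gene as counted there. CIDEC has 2 listed starts on the minus strand, with windows at chr3:9880254-9880503 (start A) and chr3:9878813-9879062 (start B). PNPLA2 is at chr11:818664-818913 on the plus strand.
PLIN2: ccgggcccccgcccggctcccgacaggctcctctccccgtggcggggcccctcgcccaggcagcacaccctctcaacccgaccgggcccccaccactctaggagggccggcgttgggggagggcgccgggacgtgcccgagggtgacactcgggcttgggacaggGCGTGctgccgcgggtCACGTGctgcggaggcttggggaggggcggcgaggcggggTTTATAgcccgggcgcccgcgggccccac
CIDEC start A: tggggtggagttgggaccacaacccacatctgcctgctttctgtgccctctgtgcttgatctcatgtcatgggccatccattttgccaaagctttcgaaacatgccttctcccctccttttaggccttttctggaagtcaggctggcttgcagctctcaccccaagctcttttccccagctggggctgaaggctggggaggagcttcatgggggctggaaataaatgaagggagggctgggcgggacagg
CIDEC start B: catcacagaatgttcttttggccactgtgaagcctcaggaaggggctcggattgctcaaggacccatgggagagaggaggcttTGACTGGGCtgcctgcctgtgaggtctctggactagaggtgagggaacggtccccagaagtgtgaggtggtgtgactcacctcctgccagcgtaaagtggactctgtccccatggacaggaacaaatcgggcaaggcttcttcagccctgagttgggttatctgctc
PNPLA2: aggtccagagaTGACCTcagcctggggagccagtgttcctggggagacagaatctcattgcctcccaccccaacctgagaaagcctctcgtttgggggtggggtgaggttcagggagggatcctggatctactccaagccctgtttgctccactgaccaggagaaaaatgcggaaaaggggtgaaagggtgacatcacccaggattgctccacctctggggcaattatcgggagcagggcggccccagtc

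The PLIN2 window held an E-box (CACGTG) 69 bases before the start, the dioxin response core GCGTG 85 bases before it and a TATA box (TATAAA), read on the opposite strand, 29 bases before it. The E-box is found in 6.32% of 34943 promoter windows of this length, GCGTG in 32.2% and TATAAA in 10.8%. CIDEC start B held the antioxidant response core TGACNNNGC 167 bases before the start, as do 10.9% of windows, and start A held no match. The PNPLA2 window held the nuclear receptor core AGGTCA, on the opposite strand, 239 bases before the start, as do 12.1% of windows. The PPAR direct repeat, AGGTCA followed by any 1 base and AGGTCA again, was in 6 of all windows and in none of these 4 windows. The cyclic AMP response core TGACG, in 21.2% of windows, and CCAAT, in 32.0%, were also in none of the 4. A match describes letters in a window and is not evidence of a bound factor. Promoter windows were at hand for 8 of the 10 members, the others being DGAT1 and DGAT2.

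After 3 days with YQSHJD, PLIN2 and CIDEC rose, by 4.01-fold and 14.6-fold in mean FPKM (a read level that the authors divided by gene length and a depth value for each library). The other 4 members that could be tested, PLIN3, PLIN4, DGAT2 and PNPLA2, did not pass the test, and their mean FPKM with YQSHJD was 0.743 to 0.957 times that with saline. G0S2 and PLIN5 were close to the limit of detection in every library, and DGAT1 and CIDEB were listed at 0 throughout. Genes that reached 1 FPKM in 3 or more of 6 libraries were tested on log2(FPKM + 1) with limma, with Benjamini-Hochberg adjustment over all 10966 such genes and a threshold of 0.05. Of the 6 members tested, 2 were called higher and 0 lower. CIDEC passed the filter only through the YQSHJD libraries, so its place in these counts depends on its being high there. Over all tested genes 23.3% were called higher, 18.0% lower and 41.4% in either direction, so a count of 2 in 6 is near the background. PLIN2 and CIDEC also passed 1 on the log2 scale, as did 2.5% of tested genes. For 4 of 6 tested members, PLIN2, CIDEC, PLIN4 and PNPLA2, the libraries of the groups did not overlap, as for 55.3% of all tested genes (30.7% higher, 24.6% lower). Under TPM rescaling, described next, 5 of the 6 members passed, 2 higher and 3 lower, against 47.6% of all genes in either direction and 39.6% lower. After correction for GC content 2 members passed, both higher, against 44.1% of all genes in either direction and 21.6% lower. In numbers, 2559 genes were higher and 1977 lower under the authors' scaling, 876 higher and 4342 lower under TPM rescaling, and 1551 higher and 3451 lower with voom on the recovered reads.

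The libraries held 13370372 to 15066527 reads in genes with YQSHJD and 14829994 to 15615649 with saline, as recovered from the FPKM values. Mitochondrial genes took 17.6% to 22.4% of these reads with YQSHJD and 13.5% to 15.7% with saline, and the part of this in the results was not tested. The authors' depth value also differed by group. It was 0.885 to 0.923 times the recovered reads with YQSHJD and 1.03 to 1.05 times with saline, which raises FPKM with YQSHJD relative to saline. FPKM summed to 422189 to 476123 with YQSHJD and 341948 to 360170 with saline. When all libraries were brought to the same total (TPM rescaling), the median log2 difference over tested genes was -0.29, against 0.038 under the authors' scaling. Changes are therefore also given relative to that median. YQSHJD 1 stood apart from the others, with the highest mitochondrial share and the lowest median correlation with the libraries of its own group (0.976, against 0.981 to 0.990 for the other 5). Without it, PLIN2 and CIDEC had log2 differences of 1.93 and 2.58. Of 9 hepatocyte markers all 9 passed the filter, with 5 higher and 0 lower (median log2 difference 0.45), or 3 higher and 2 lower under TPM rescaling (median 0.084), beside the shares over all genes given above. ALB averaged 2123 ± 426 FPKM with YQSHJD and 940.2 ± 96.0 FPKM with saline (SD, n = 3 each), while TTR and SERPINA1, with log2 differences of -0.37 and -0.12, did not pass. The markers had a summed level of 4356 to 5256 FPKM with YQSHJD and 2899 to 3165 FPKM with saline. Adipocytes also carry perilipins and CIDEC, but 0 of 6 adipocyte markers passed the filter, LEP and CIDEA were at 0 in all libraries, and the list summed to 0.248 to 0.316 FPKM with YQSHJD and 0.0625 to 0.234 FPKM with saline. PLIN1, the adipocyte perilipin, had 6, 6 and 11 reads with YQSHJD and 3, 2 and 2 reads with saline. PTPRC of leukocytes and DCN of fibroblasts were also at 0 in all libraries. LYZ, listed as a leukocyte marker, passed with a log2 difference of 1.22 and made up nearly all of that list's sum of 207.6 to 223.1 FPKM with YQSHJD and 87.3 to 93.1 FPKM with saline, while the stellate cell marker ACTA2 had a log2 difference of -0.28 and its list summed to 13.1 to 14.0 FPKM with YQSHJD and 15.0 to 19.5 FPKM with saline. The part of these markers in the results was not tested. In bulk RNA, fewer cells with a transcript and less of it per cell cannot be told apart.

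PLIN2 (ENSG00000147872, chromosome 9, positions 19108375 to 19149290 as the deposited table gives them) coats cytosolic droplets and shields their triglyceride from lipases. It measured 166.7, 155.6 and 149.3 FPKM in YQSHJD 1, 2 and 3, against 36.9, 39.4 and 41.5 FPKM in saline 1, 2 and 3. Every YQSHJD library lay far above every saline library, and the spread inside each group was small beside the gap. The means were 157.2 ± 8.85 FPKM with YQSHJD and 39.2 ± 2.32 FPKM with saline (SD, n = 3 each). The log2 difference was 1.98 (standard error 0.087) with a 95% interval of 1.78 to 2.17 (limma adjusted p = 2.57e-06). Relative to the median of all tested genes it was 1.94 under the authors' scaling and 1.92 both under TPM rescaling and after correction for GC content. PLIN2 was the member with the most reads summed over each group, with 9301 to 10777 per library with YQSHJD and 2814 to 3407 with saline. In saline 1, however, PLIN3 (3003 reads) and PNPLA2 (2849 reads) had more. No other gene of the table overlaps PLIN2. By log2 difference it ranked 47th of the tested genes.

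PLIN3 (ENSG00000105355, chromosome 19, 4838341 to 4867694), a perilipin that moves between the cytosol and young droplets, measured 56.9, 72.2 and 72.2 FPKM in YQSHJD 1, 2 and 3, against 72.0, 68.8 and 71.3 FPKM in saline 1, 2 and 3. The groups overlapped, and YQSHJD 1 alone lay below the rest. Its log2 difference was -0.082 with a 95% interval of -0.33 to 0.17 (limma adjusted p = 0.571), and it turned to 0.098 after GC correction and to 0.031 without YQSHJD 1. Under TPM rescaling it was -0.44 (limma adjusted p = 0.0360), which is -0.15 relative to the median of all genes under that scaling.

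PLIN4 (ENSG00000167676, chromosome 19, 4502192 to 4518486), the perilipin with a long repeated amphipathic stretch, measured 2.44, 2.87 and 3.55 FPKM in YQSHJD 1, 2 and 3, against 4.45, 3.74 and 3.72 FPKM in saline 1, 2 and 3. The groups did not overlap, but YQSHJD 3 came close to saline 2 and 3. The log2 difference was -0.33 with a 95% interval of -0.62 to -0.049 (limma adjusted p = 0.0607). The call is on the edge. PLIN4 passed as lower under TPM rescaling at -0.71 (limma adjusted p = 0.0115), or -0.42 relative to the median of all genes, and without YQSHJD 3 at -0.44 (limma adjusted p = 0.0184). It also passed as lower under median-of-ratios scaling (limma adjusted p = 0.0476), quantile normalization (limma adjusted p = 0.0482), array weights (limma adjusted p = 0.00127) and voom at -0.63 (limma adjusted p = 0.00616), or -0.48 relative to the median of all genes. With array weights the YQSHJD group rested mainly on YQSHJD 2 (weight 11.9, against 0.171 and 0.416 for YQSHJD 1 and 3). PLIN4 was at -0.063 after GC correction (limma adjusted p = 0.543). It shares 17 bases with HDGFL2 on the other strand, and how reads were assigned to strands is unstated in the labels. PLIN5 (ENSG00000214456, chromosome 19, 4522531 to 4535224), which ties droplets to mitochondria in tissues that burn fat, had 3, 4 and 4 reads in YQSHJD 1, 2 and 3, against 2, 2 and 7 reads in saline 1, 2 and 3. Its reads summed to 11 in each group, with an exact Poisson interval of 5.49 to 19.7 that covers counting error only, so no difference was detectable at this depth.

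**Figure D1:**
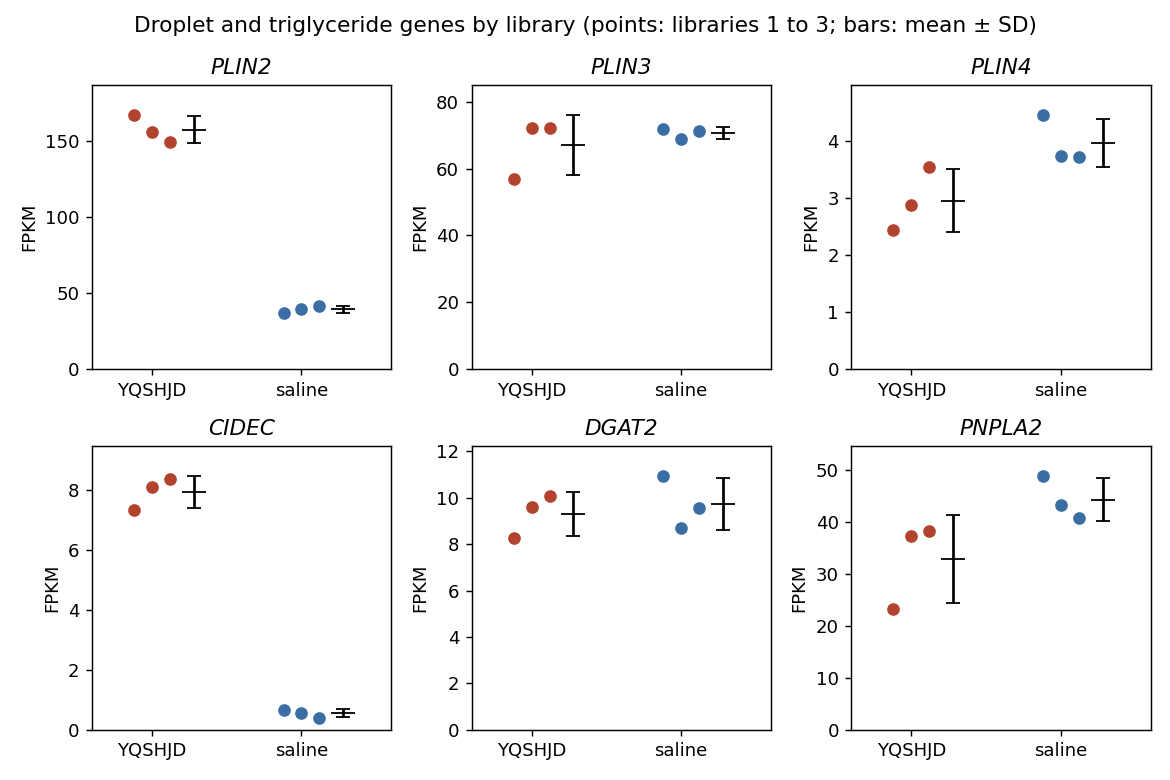
FPKM of the 6 tested members in each library, YQSHJD left and saline right, with the mean and SD of each group as bars and every axis starting at 0. PLIN2 and CIDEC stand apart from saline in all 3 YQSHJD libraries, and YQSHJD 1 is the lowest point for PLIN3, PLIN4, DGAT2 and PNPLA2.

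PLIN2 made up the larger part of the summed perilipin FPKM with YQSHJD and the smaller part with saline. Summed over PLIN2 to PLIN5, the level was 227.3 ± 3.05 FPKM with YQSHJD and 113.9 ± 2.43 FPKM with saline (SD, n = 3 each), a ratio of 2.00. PLIN2 made up 73.7%, 67.4% and 66.3% of that sum in YQSHJD 1, 2 and 3, against 32.5%, 35.2% and 35.6% in saline 1, 2 and 3. By FPKM, PLIN2 was the highest perilipin in all 3 YQSHJD libraries and PLIN3 in all 3 saline libraries. The saline order rests on the gene lengths of the deposited values, 5011 bases for PLIN2 and 2739 for PLIN3. In reads, PLIN2 and PLIN3 were close with saline, at 2814 and 3003 in saline 1, 3034 and 2897 in saline 2, and 3407 and 3200 in saline 3. A switch of the main perilipin is therefore not shown. PLIN3 made up 25.2%, 31.3% and 32.1% in YQSHJD 1, 2 and 3, against 63.5%, 61.5% and 61.2% in saline 1, 2 and 3. The share of PLIN4 was 1.30% ± 0.25 with YQSHJD and 3.48% ± 0.39 with saline (SD, n = 3 each). The summed level and its ratio of 2.00 depend on how libraries are scaled and are given under the authors' scaling only. Shares within a library do not depend on the scaling between libraries but do depend on the gene lengths. Since shares sum to a whole, a rise of PLIN2 lowers the others. The exact two-sided permutation p was 0.10 for the sum and for the shares of PLIN2, PLIN3 and PLIN4, which is the smallest that 3 against 3 libraries can give.

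**Figure D2:**
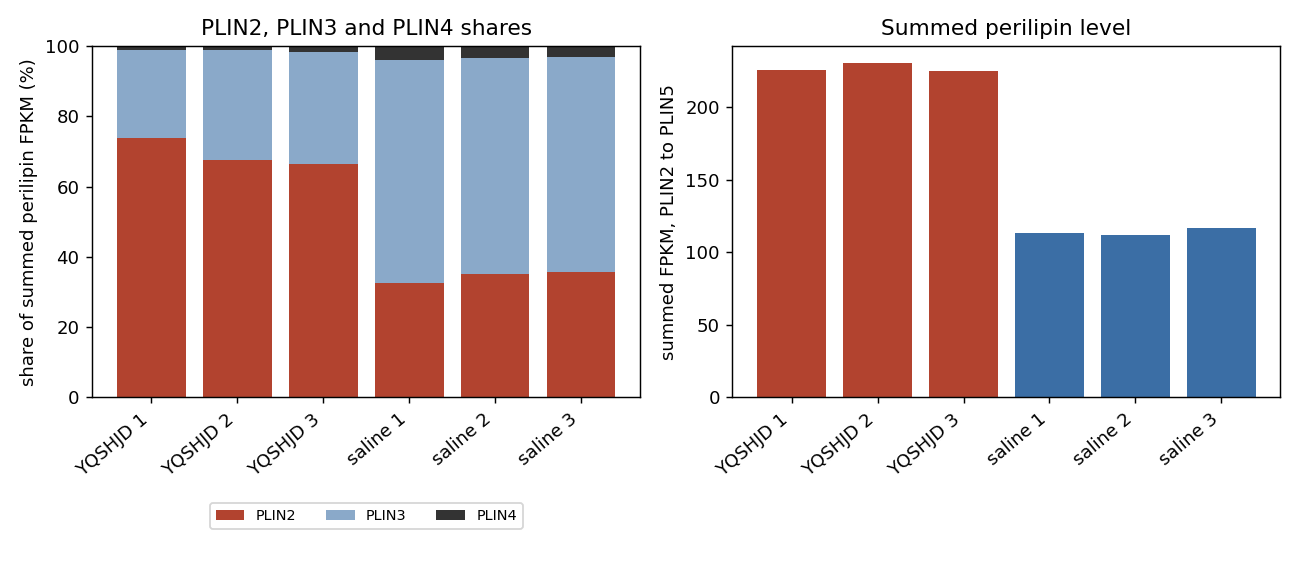
Left, the share of PLIN2, PLIN3 and PLIN4 in the summed perilipin FPKM of each library in percent, with PLIN5 too small to draw; right, the summed FPKM of PLIN2 to PLIN5. The PLIN2 share is 66.3% to 73.7% in the 3 YQSHJD libraries and 32.5% to 35.6% in the 3 saline libraries.

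CIDEC (ENSG00000187288, chromosome 3, 9866711 to 9880255) gathers at the contact between droplets and passes lipid from the smaller to the larger, which gives larger droplets. It measured 7.36, 8.13 and 8.37 FPKM in YQSHJD 1, 2 and 3, against 0.670, 0.564 and 0.405 FPKM in saline 1, 2 and 3. All YQSHJD libraries were high and close together, and all saline libraries were below 1 FPKM. In reads this was 186, 190 and 228 with YQSHJD, against 20, 17 and 13 with saline. Together these were 604 reads (exact Poisson interval 557 to 654) with YQSHJD and 50 (37.1 to 65.9) with saline. The means were 7.95 ± 0.53 FPKM with YQSHJD and 0.546 ± 0.133 FPKM with saline (SD, n = 3 each). The log2 difference was 2.54 (standard error 0.11) with a 95% interval of 2.29 to 2.78 (limma adjusted p = 1.94e-06), the 18th largest rise among tested genes. The pseudocount of 1 shrinks this value because CIDEC was low with saline, and with a pseudocount of 0.1 it was 3.66. Relative to the median of all tested genes it was 2.50 under the authors' scaling, 2.69 after GC correction and 3.17 under TPM rescaling. TPM rescaling enlarges every value, so the fixed pseudocount shrinks CIDEC less there. The 3.17 is therefore not to be read as a larger change. CIDEC passed the filter only through the YQSHJD libraries. CIDEB (ENSG00000136305, chromosome 14, 24305187 to 24311430), the CIDE protein known in hepatocytes for loading lipid onto very low density lipoprotein, was listed at 0 in all 6 libraries. It lies over NOP9 for 3938 bases and over LTB4R2 for 5697 bases, both on the other strand, and the table's own description column names LTB4R2 for it.

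DGAT2 (ENSG00000062282, chromosome 11, 75759512 to 75801535) measured 8.26, 9.59 and 10.1 FPKM in YQSHJD 1, 2 and 3, against 10.9, 8.72 and 9.54 FPKM in saline 1, 2 and 3. The groups overlapped. Its log2 difference was -0.057 with a 95% interval of -0.32 to 0.20 (limma adjusted p = 0.712), and it was 0.019 without YQSHJD 1 and 0.022 without saline 1. Under TPM rescaling it was -0.41 (limma adjusted p = 0.0507), or -0.12 relative to the median of all genes. DGAT1 (ENSG00000185000, chromosome 8, 144314584 to 144326910) was listed at 0 in all 6 libraries. HSF1, a heat shock transcription factor that most cells use, overlaps it by 137 bases on the other strand and was at 0 as well except for 1 read in saline 3. Such a 0 means that no read was assigned to the gene, for a reason not known here, so no statement on DGAT1 or CIDEB expression is made. Of protein-coding genes within 500000 bases of DGAT1, 8 of 49 were at 0 in every library with DGAT1 included, and near CIDEB 13 of 46 were with CIDEB included, against 25.4% of all protein-coding genes in the table.

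PNPLA2 (ENSG00000177666, chromosome 11, 818914 to 825573) measured 23.2, 37.3 and 38.2 FPKM in YQSHJD 1, 2 and 3, against 48.8, 43.3 and 40.8 FPKM in saline 1, 2 and 3. The groups did not overlap, but YQSHJD 1 lay well below YQSHJD 2 and 3, which were near saline 3. The log2 difference was -0.45 with a 95% interval of -0.87 to -0.027 (limma adjusted p = 0.0822). Without YQSHJD 1 it was -0.22 (limma adjusted p = 0.0728), and after GC correction -0.12 (limma adjusted p = 0.310). PNPLA2 passed as lower under TPM rescaling at -0.81 (limma adjusted p = 0.0195), which is -0.52 relative to the median of all genes, and without YQSHJD 3 at -0.57 (limma adjusted p = 0.0444). It also passed as lower under quantile normalization at -0.48 (limma adjusted p = 0.0391), array weights at -0.25 (limma adjusted p = 0.0150) and voom at -0.66 (limma adjusted p = 0.00748), or -0.51 relative to the median of all genes. The run with array weights rested mainly on YQSHJD 2 within its group. G0S2 (ENSG00000123689, chromosome 1, 209675412 to 209676390), the inhibitor of this lipase, had 1, 2 and 0 reads in YQSHJD 1, 2 and 3, against 4, 3 and 2 reads in saline 1, 2 and 3. Summed, that was 3 reads with YQSHJD (exact Poisson interval 0.619 to 8.77) and 9 with saline (4.12 to 17.1), and the intervals overlap.

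**Figure D3:**
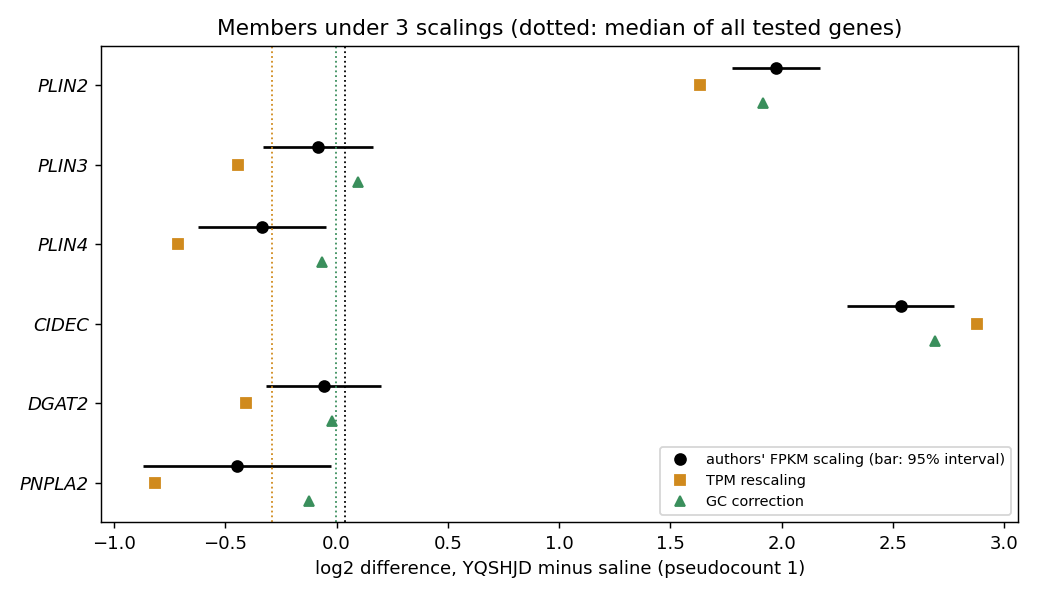
Log2 difference between YQSHJD and saline for the 6 tested members under the authors' scaling (circles, with 95% intervals), TPM rescaling (squares) and GC correction (triangles), with the median of all tested genes under each as dotted lines. PLIN2 and CIDEC lie at 1.63 or higher under all 3, while PLIN3 changes sign after GC correction, which puts PLIN4 at -0.063 and PNPLA2 at -0.12.

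With YQSHJD the order of levels, from the highest mean FPKM, was PLIN2, PLIN3, PNPLA2, DGAT2, CIDEC and PLIN4, with G0S2 and PLIN5 lowest above 0. With saline it was PLIN3, PNPLA2, PLIN2, DGAT2, PLIN4 and CIDEC, again with G0S2 and PLIN5 lowest. With YQSHJD, DGAT2 and CIDEC were close, at 9.31 ± 0.94 and 7.95 ± 0.53 FPKM (SD, n = 3), but kept their order in each library. With saline, PNPLA2 in saline 3 (40.8 FPKM) was below PLIN2 in the same library (41.5 FPKM), so this pair was not separated beyond its spread, whereas the other neighbours among these 6 kept their order in every library. Ratios of FPKM within a library do not depend on the scaling between libraries. Their size and the order of levels do depend on the gene lengths used. PLIN2 over PLIN3 was 2.93, 2.15 and 2.07 in YQSHJD 1, 2 and 3, against 0.512, 0.572 and 0.582 in saline 1, 2 and 3. PLIN2 over the lipase PNPLA2 was 7.20, 4.17 and 3.91 in YQSHJD 1, 2 and 3, against 0.755, 0.910 and 1.02 in saline 1, 2 and 3. Every YQSHJD ratio exceeded every saline ratio in both cases, and the log2 differences were 2.09 and 2.46. PNPLA2 over DGAT2 was 2.80, 3.89 and 3.79 in YQSHJD 1, 2 and 3, against 4.46, 4.96 and 4.28 in saline 1, 2 and 3. In all, 6 ratios were tested, and each had an exact two-sided permutation p of 0.10, also 0.10 after Benjamini-Hochberg adjustment over the 6, which is the smallest this design allows. Of 4 ratios first listed, 3 held a member with a value of 0 and were left out, and 5 of the 6 tested were chosen after the values were seen.

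Outside the 10 members, 6 lists of related genes with 99 names were read in the same fit. Of 73 tested, 31 were higher and 9 lower, and under TPM rescaling 17 were higher and 21 lower. The 31 include MTTP, PPARG and PPARGC1A, which passed the filter only through the YQSHJD libraries. Their place in these counts and in those of their lists depends on their being high there. The lists were chosen with earlier results of these data known, and each is described only by counts beside the background of 23.3% higher and 18.0% lower. Counts under TPM rescaling have a different background, with 876 of 10966 tested genes higher and 4342 (39.6%) lower.

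Enzymes of glycerolipid synthesis, which make glycerol phosphate or build on it or on monoacylglycerol, held 5 higher and 1 lower of 13 tested (median log2 difference 0.22, against 0.038 for all genes; 3 higher and 5 lower under TPM rescaling). GPAT3, an acyltransferase of the first step, measured 18.4, 18.1 and 17.5 FPKM in YQSHJD 1, 2 and 3, against 4.69, 4.58 and 4.51 FPKM in saline 1, 2 and 3, a fold of 3.92 with no overlap (log2 difference 1.77, limma adjusted p = 4e-06). GPD1, which makes glycerol phosphate, rose by 1.09 on the log2 scale, the monoacylglycerol acyltransferase MOGAT2 by 0.76 and the mitochondrial acyltransferase GPAM by 0.68. The phosphatidate phosphatases LPIN2 and LPIN1 went opposite ways, at -0.47 and 0.37, both past the test. LPIN3, at -0.48, did not pass (limma adjusted p = 0.0627). The call of GPAM was lost under TPM rescaling (limma adjusted p = 0.0632), as was that of LPIN1 (limma adjusted p = 0.489). Reads of LPIN1, LPIN2, ABHD5, VMP1, ACSL5, SAR1B, SREBF1, MGLL and PNPLA3 may be shared with an overlapping gene at 1 FPKM or more, LPIN1 and PNPLA3 on the same strand. For LPIN1 that gene, ENSG00000228496, averaged 42.6 FPKM, far above LPIN1 at 4.94 FPKM with YQSHJD and 3.59 FPKM with saline. The part of shared reads in the LPIN1 difference was not tested.

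Lipases and their cofactors held 5 higher and 0 lower of 11 tested (median 0.093; 1 higher and 3 lower under TPM rescaling). LIPA, the acid lipase of lysosomes, measured 60.3, 57.7 and 48.8 FPKM in YQSHJD 1, 2 and 3, against 19.8, 20.3 and 23.3 FPKM in saline 1, 2 and 3 (log2 difference 1.35, limma adjusted p = 5.88e-05). ABHD5, the activator of PNPLA2, measured 3.97, 2.60 and 2.59 FPKM in YQSHJD 1, 2 and 3, against 1.40, 1.97 and 1.74 FPKM in saline 1, 2 and 3. ABHD5 rose by 0.57 on the log2 scale (limma adjusted p = 0.0167), with YQSHJD 1 the highest library, and lost its call under TPM rescaling (limma adjusted p = 0.0862), without saline 1 (limma adjusted p = 0.0703) and without saline 3 (limma adjusted p = 0.0510). The hepatic lipase LIPC rose by 0.50 on the log2 scale and the carboxylesterases CES1 and CES2 by 0.50 and 0.34, and all 3 lost their calls under TPM rescaling, where CES2 turned to -0.010. HILPDA, a small inhibitor of PNPLA2 that responds to hypoxia, measured 2.75 ± 0.36 FPKM with YQSHJD and 2.76 ± 0.33 FPKM with saline (SD, n = 3 each), and PNPLA3, known for its link to fatty liver, had a log2 difference of 0.093 (limma adjusted p = 0.435). The hormone-sensitive lipase LIPE had 0 reads with YQSHJD and 1 with saline, and the monoglyceride lipase MGLL had 0 to 8 reads per library with YQSHJD and 0 to 3 with saline.

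Other droplet proteins and factors of droplet formation held 8 higher and 0 lower of 15 tested (median 0.38; 3 higher and 3 lower under TPM rescaling). VMP1, a membrane protein that helps droplets leave the endoplasmic reticulum, measured 40.2 ± 5.83 FPKM with YQSHJD and 21.9 ± 1.42 FPKM with saline (SD, n = 3 each; log2 difference 0.84, limma adjusted p = 0.000864). SPART rose by 0.77 on the log2 scale, the droplet dehydrogenase HSD17B11 by 0.68, the GTPase RAB18 by 0.62, the droplet hydrolase LDAH by 0.59 and PCYT1A, which makes phosphatidylcholine for growing droplets, by 0.51. RAB18, LDAH and PCYT1A lost their calls under TPM rescaling. ACSL3, the acyl-CoA synthetase of young droplets, had a log2 difference of -0.21 (limma adjusted p = 0.157) and passed as lower without YQSHJD 1 at -0.31 (limma adjusted p = 0.0196) and after GC correction at -0.46 (limma adjusted p = 0.000728). HSD17B13, a hepatocyte droplet protein, had 0 to 7 reads per library with YQSHJD and 0 to 3 with saline, and the seipin gene BSCL2 had 5 to 15 with YQSHJD and 18 to 20 with saline.

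Fatty acid activation and uptake held 4 higher and 1 lower of 11 tested (median 0.23), and the same counts under TPM rescaling. ACSL5, an acyl-CoA synthetase, measured 29.3, 27.2 and 27.1 FPKM in YQSHJD 1, 2 and 3, against 8.65, 9.51 and 9.52 FPKM in saline 1, 2 and 3, a fold of 3.02 (95% interval of the log2 difference 1.30 to 1.70, limma adjusted p = 1.13e-05). The transporter SLC27A1 fell to 1.80 ± 0.23 FPKM with YQSHJD, against 5.30 ± 0.44 FPKM with saline (SD, n = 3 each; log2 difference -1.17, limma adjusted p = 9.93e-05). The liver fatty acid binding protein FABP1 rose by 0.73 on the log2 scale, ACSL1 by 0.70 and SLC27A2 by 0.58. Among outlets for sterol ester and lipoprotein, 4 were higher and 1 lower of 7 tested (median 0.40; 2 higher and 1 lower under TPM rescaling). MTTP, which loads triglyceride onto apolipoprotein B, had 227, 178 and 195 reads in YQSHJD 1, 2 and 3, against 47, 41 and 54 reads in saline 1, 2 and 3, and its mean FPKM was 5.15 times that with saline. It passed the filter only through the YQSHJD libraries (log2 difference 1.34, limma adjusted p = 5.88e-05). SOAT2, a sterol acyltransferase of hepatocytes and intestine, measured 1.53, 1.74 and 3.02 FPKM in YQSHJD 1, 2 and 3, against 6.05, 5.77 and 4.15 FPKM in saline 1, 2 and 3, and fell by 1.05 on the log2 scale (limma adjusted p = 0.00380). SAR1B rose by 0.76, and SOAT1 and NCEH1 rose by 0.40 and 0.37 but lost their calls under TPM rescaling and after GC correction.

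Factors known to control droplet genes held 5 higher and 6 lower of 16 tested (median -0.012; 4 higher and 8 lower under TPM rescaling). The 5 higher include PPARG and PPARGC1A, which passed the filter only through the YQSHJD libraries. CREB3L3, a liver factor of the fasting response that is known in mice to act on the gene of CIDEC, measured 40.8, 42.7 and 43.0 FPKM in YQSHJD 1, 2 and 3, against 9.27, 9.06 and 10.4 FPKM in saline 1, 2 and 3 (log2 difference 2.03, limma adjusted p = 2.57e-06). PPARA, the PPAR of hepatocytes, measured 7.57, 6.34 and 6.37 FPKM in YQSHJD 1, 2 and 3, against 3.41, 3.44 and 3.07 FPKM in saline 1, 2 and 3 (log2 difference 0.85, limma adjusted p = 0.000410). PPARG, the PPAR of adipocytes, was low, at 1.31 ± 0.22 FPKM with YQSHJD and 0.561 ± 0.068 FPKM with saline (SD, n = 3 each; log2 difference 0.56, limma adjusted p = 0.00617), and passed the filter only through the YQSHJD libraries, while PPARD fell by 0.71. SREBF1, which drives fatty acid synthesis, fell to 6.76 ± 1.71 FPKM with YQSHJD, against 16.1 ± 1.22 FPKM with saline (SD, n = 3 each; log2 difference -1.16, limma adjusted p = 0.000792). The hypoxia factors went opposite ways, with HIF1A at 1.13 and EPAS1 at -0.91 on the log2 scale, both past the test (limma adjusted p = 0.000590 and 0.000144). HIF1A was highest in YQSHJD 1, at 110.8 FPKM, against 79.9 and 73.6 FPKM in YQSHJD 2 and 3 and 37.5 to 40.2 FPKM in the saline libraries.

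**Figure D4:**
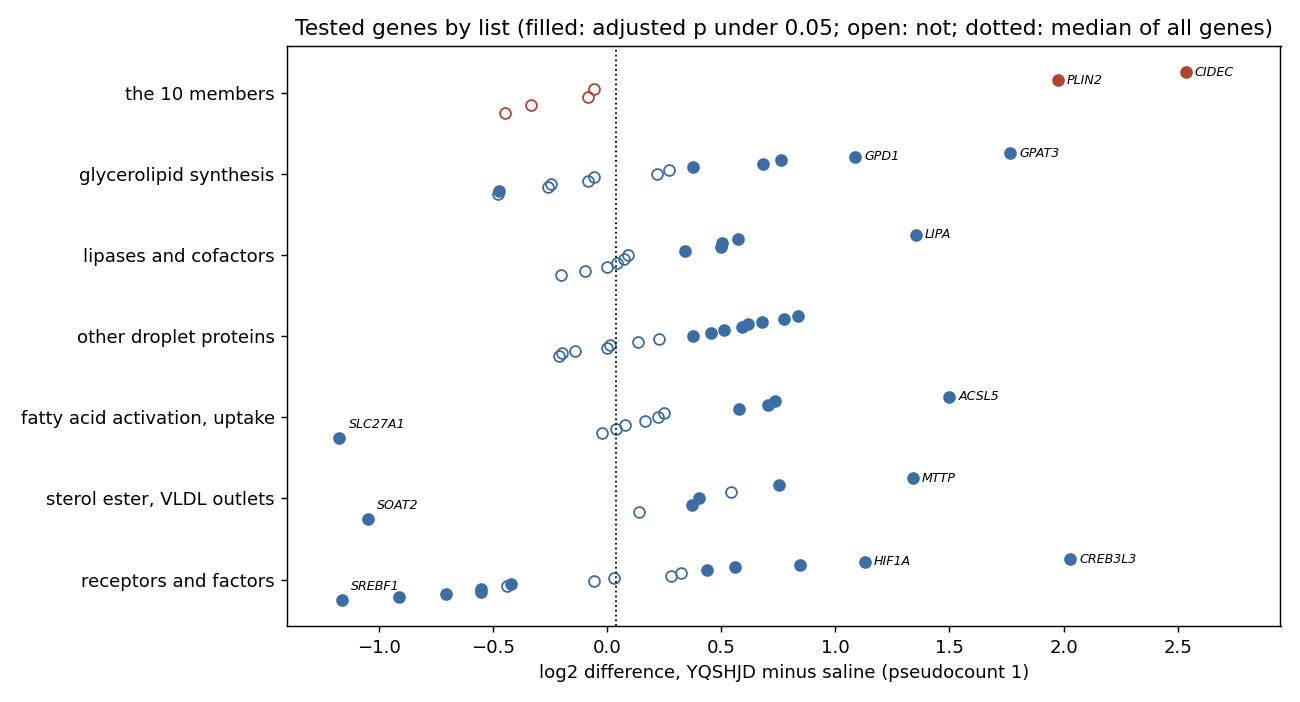
Log2 difference between YQSHJD and saline for every tested gene of the members (top row) and of 6 related lists, filled where the adjusted p was under 0.05 and open where it was not, with the median of all tested genes dotted. Genes at or beyond 1 in either direction are named, and CIDEC at 2.54 lies furthest right, followed by CREB3L3 at 2.03 and PLIN2 at 1.98.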

How the data were processed

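Values are FPKM as the authors deposited them, in 1 table that also lists gene positions. CASAVA 2.19 is named, per the submitters' processing notes, with no role. Aligner, counter, strand setting, build and annotation (each not given in the sources used here) could change single genes. Another 6 columns of the table fit no sample label and were not used. Multiplying FPKM by gene length and a constant per library gave whole reads for 100% of values (tolerance 0.01 reads). Log2(FPKM + 1) was tested with limma 3.58.1 in R 4.3.3 (trend and robust prior, two-sided). The step was also run on simulated data, where few genes changed, up and down in equal number, so that run does not speak for these data. Low genes are understated on the log2(FPKM + 1) scale. Ratios used exact permutation tests (SciPy 1.17.1). Promoter sequences are from RefSeq (GRCh38.p14), GC content from GENCODE release 29 (98.6% of tested genes), and the GC correction removed a loess curve on transcript GC (span 0.5) from each library. Genes named were all members, up to 6 passing genes per list by size of log2 difference, and 10 fixed genes. LPIN3 and PPARGC1A were named in addition. Members and lists were chosen with earlier results of these data known. Alternatives are given in the closing section. Intervals on reads cover counting error only.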

Additional observations from a re-analysis of the deposited data

How the results depend on the processing

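PLIN2 and CIDEC stayed higher in every alternative run, with log2 differences of 1.63 to 2.02 and 2.47 to 3.87. The number of members passing, 2, became 5 under TPM rescaling (2 higher, 3 lower, with PLIN3, PLIN4 and PNPLA2 gained), 4 under quantile normalization, array weights and voom on the recovered reads (2 higher, 2 lower each, with PLIN4 and PNPLA2 gained) and 3 under median-of-ratios scaling (PLIN4 gained), and ranged from 2 to 4 (without YQSHJD 3) when 1 library was left out. Genes passing, 4536, became 2957 with no filter, 7378 with array weights, whose estimation stopped before convergence, and 2482 at an adjusted p under 0.01, and ranged from 2805 (without saline 1) to 4812 when 1 library was left out. The median of all genes was -0.16 with voom. The sign of PLIN3 turned with array weights (0.038) and GC correction (0.098), and when 1 library was left out it ran from -0.14 to 0.031 (positive without YQSHJD 1). That of DGAT2 turned with array weights (0.019) and ran from -0.13 to 0.022 (positive without YQSHJD 1 or saline 1). CES2 (-0.010) and PNPLA3 (-0.25) turned under TPM rescaling and PNPLA3 with voom (-0.10). HILPDA turned with array weights (0.010) and ran from -0.069 to 0.068 (positive without YQSHJD 3 or saline 3). Leaving out 1 library also ended some small calls (limma adjusted p): LPIN1 without saline 1 (0.0868) or 3 (0.0536), NCEH1 without saline 2 (0.0661), SOAT1 without YQSHJD 2 (0.0591) or saline 1 (0.115) or 2 (0.104), and CES2 without YQSHJD 2 (0.0728) or any saline library (0.0609 to 0.0798). The causes were not tested. The labels share only replicate numbers: same-numbered libraries had correlations of -0.24, -0.11 and -0.040 between their deviations from the group means, so they were not treated as pairs, and with the replicate number as a block 3707 genes and the same count of 2 members passed. The 31 higher and 9 lower list genes became 28 and 10 with the block. All 42 values of the member ratios under alternatives kept their direction. Leaving out 1 library could not have turned a ratio, because the groups did not overlap for any tested ratio. Scaling between libraries could not either, because ratios within a library do not depend on it. For such runs the kept direction is therefore no check of the ratios. Members with few reads (G0S2, PLIN5) are limited by depth.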
